A study of Saccharomyces cerevisiae with 13 samples.

Results

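The genes of peroxisomal beta-oxidation were followed in Saccharomyces cerevisiae exposed to TFM. They comprised 10 genes of the 5449 that the array measured by a probe set with 1 gene name: PXA1 and PXA2 for fatty acid import, FAA2 for activation, POX1, FOX2 and POT1 for the core cycle, SPS19, ECI1 and TES1 as auxiliary enzymes, and CTA1 for the peroxisomal catalase. The genes were listed by their role in the pathway. They and the lists of related genes below were chosen with earlier results of these data known. Their counts and medians are therefore descriptions and no independent test. All 10 were measured, each by a single probe set, and none had a mean at or under the level of the unspiked control probe sets.

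In yeast, beta-oxidation takes place in peroxisomes alone, where each turn of the cycle oxidizes, hydrates, oxidizes again and cleaves an acyl-CoA, releasing acetyl-CoA. The oxidase of the cycle passes its electrons to oxygen, and the hydrogen peroxide that results is split by catalase. The genes are known to be repressed on glucose, derepressed on non-fermentable carbon sources such as glycerol, and induced on oleate through the Oaf1-Pip2 activator and Adr1.

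The strain was BY4741, a MATa laboratory strain that lacks functional HIS3, LEU2, MET15 and URA3, and all groups shared it. Cultures were grown to saturation in YPGE, a glycerol and ethanol medium. They then received 0.05 mM TFM, a lampricide known as an uncoupler of mitochondrial respiration, or 2% isopropanol, the untreated arm, for 1, 2 or 4 h. RNA taken just before treatment stood for time zero. Its label names 2% isopropanol as the agent, although the design places it before any treatment. Whether the TFM cultures also held isopropanol is not stated, so an effect of TFM and one of a different isopropanol level cannot be told apart. Each of the 7 groups had 2 arrays except isopropanol at 2 h, which had 1 because the RNA of the other sample was poor. The RNA samples are called independent, with no word on whether the cultures were separate, so the p-values reflect the spread of these samples, and that spread may be technical.

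Across the 13 arrays, replicates correlated at Pearson r from 0.9917 to 0.9984 over genes. The deleted markers LEU2, MET15 (listed as MET17) and URA3 had means of 5.64, 5.53 and 4.89, below the highest control mean of 5.94, while HIS3, whose deletion in this strain is partial, had 11.48. Levels are log2 RMA values, a summary of each probe set after the arrays were brought to a common distribution. Changes are therefore relative to the rest of the array, and less mRNA per cell cannot be told apart from fewer cells that express a gene. A difference is the mean of the first group minus that of the second, on the log2 scale with its standard error, and was called when its Benjamini-Hochberg adjusted p over all genes in limma was under 0.05. Where the arms are compared, rose and fell mean higher and lower than isopropanol at the same time, not a change from time zero.

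After 4 h of TFM 9 of the 10 genes were called higher than in isopropanol, by 1.42-fold for SPS19 to 3.17-fold for POT1, and 0 lower. The exception was TES1, the peroxisomal acyl-CoA thioesterase. Over all genes 30.9% were called higher at this time, and 34.0% lower. The median difference of the 10 genes was 0.79, beside -0.012 over all genes. At 2 h 5 of the 10 were called higher, beside 8.30% of all genes, whereas at 1 h 0 of the 10 were called, beside 1.23% of all genes called in either direction.

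**Figure D1:**
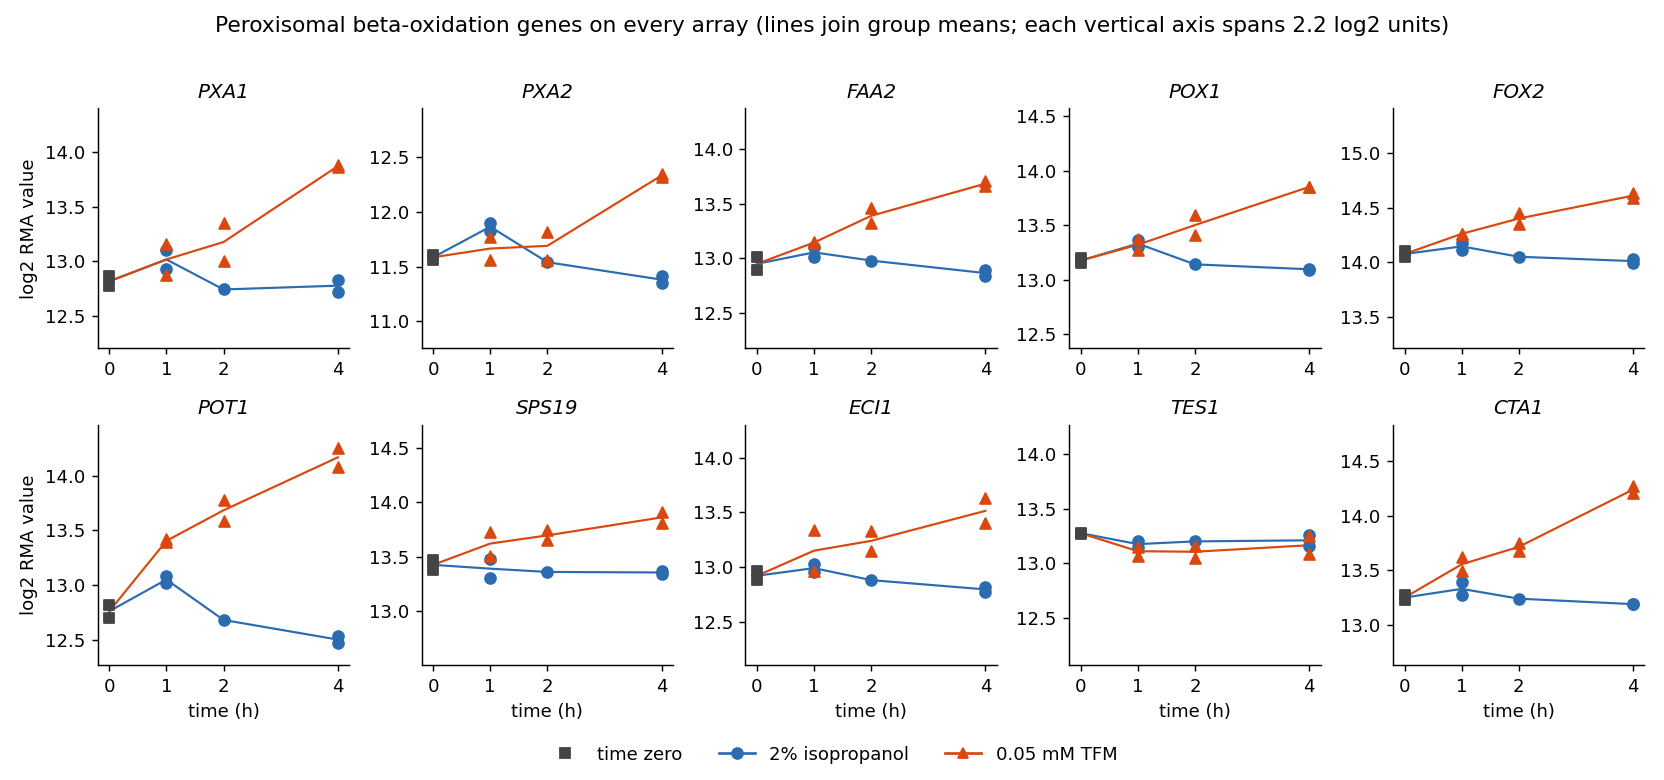
Log2 RMA value of each gene (vertical axis, 2.2 log2 units in every panel) on every array against time (horizontal axis, h); squares are time zero, circles 2% isopropanol and triangles 0.05 mM TFM, with lines through the group means. At 4 h both TFM arrays lie above every other array for 9 genes, while all TES1 values lie between 13.05 and 13.28. How many of all genes share this separation was not counted.

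PXA1 (YPL147W, chromosome XVI) and PXA2 (YKL188C, chromosome XI) encode the subunits of the ABC transporter that brings long-chain acyl-CoA into the peroxisome. PXA1 stood at 12.86 and 12.77 at time zero, and at 12.93 and 13.10, 12.74, and 12.83 and 12.72 in isopropanol at 1, 2 and 4 h. In TFM it stood at 13.16 and 12.87, 13 and 13.35, and 13.86 and 13.88 at those times. The groups overlapped at 1 h, with a difference of 0.00 ± 0.127 (adjusted p = 0.9966), and the TFM arrays were clear of all others at 4 h. PXA1 was then higher than in isopropanol by 1.10 ± 0.127, or 2.14-fold (adjusted p = 5.019e-05 in limma). At 2 h the difference of 0.43 ± 0.155 was not called (adjusted p = 0.09489).

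PXA2 began at 11.61 and 11.56, and read 11.90 and 11.83, 11.54, and 11.35 and 11.41 in isopropanol at 1, 2 and 4 h. With TFM it read 11.77 and 11.56, 11.56 and 11.82, and 12.35 and 12.32 in the same order. At 1 h the TFM arrays were the lower ones, with a difference of -0.20 ± 0.098 that was not called (adjusted p = 0.3165). Over all settings that 1 h value ran from -0.31 to 0.08, so its sign depended on the setting. By 4 h PXA2 was 1.95-fold higher in TFM, at 0.96 ± 0.098 (adjusted p = 2.265e-05 in limma). Its difference at 2 h, 0.15 ± 0.12, was not called (adjusted p = 0.4291), so both transporter genes were first called at 4 h.

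FAA2 (YER015W, chromosome V), the peroxisomal acyl-CoA synthetase that activates medium-chain fatty acids inside the organelle, had 12.89 and 13.01 at time zero. Isopropanol gave 13.01 and 13.10, 12.98, and 12.89 and 12.84, and TFM gave 13.15 and 13.14, 13.32 and 13.46, and 13.71 and 13.66, at 1, 2 and 4 h. Every TFM array exceeded every array without TFM. The difference of 0.09 ± 0.075 at 1 h was not called (adjusted p = 0.5734). FAA2 was higher than in isopropanol by 0.41 ± 0.092 at 2 h (adjusted p = 0.01893) and by 0.82 ± 0.075, or 1.77-fold, at 4 h (adjusted p = 1.107e-05).

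POX1 (YGL205W, chromosome VII) encodes the acyl-CoA oxidase, the enzyme of the first and peroxide-forming step. It had 13.15 and 13.20 at time zero, 13.30 and 13.36, 13.14, and 13.10 and 13.09 in isopropanol, and 13.37 and 13.27, 13.41 and 13.59, and 13.85 on both arrays in TFM. The groups overlapped at 1 h, with a difference of -0.01 ± 0.074 (adjusted p = 0.9562). From 2 h the TFM arrays lay above all arrays without it, by 0.36 ± 0.091 at 2 h (adjusted p = 0.03154) and by 0.76 ± 0.074, or 1.69-fold, at 4 h (adjusted p = 1.796e-05).

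FOX2 (YKR009C, chromosome XI), the multifunctional enzyme that hydrates the double bond and oxidizes the hydroxy group, had 14.05 and 14.10 at time zero. Its isopropanol values were 14.11 and 14.18, 14.05, and 13.99 and 14.03, and its TFM values 14.26 on both arrays, 14.35 and 14.45, and 14.59 and 14.63. All TFM arrays were above all arrays without TFM. Of the core enzymes it had the smallest difference at 4 h, 0.60 ± 0.064 or 1.51-fold (adjusted p = 3.087e-05), after 0.12 ± 0.064 at 1 h (adjusted p = 0.3442, not called) and 0.36 ± 0.078 at 2 h (adjusted p = 0.01824).

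POT1 (YIL160C, chromosome IX), the thiolase that cleaves off acetyl-CoA, moved the most of the 10. It had 12.70 and 12.82 at time zero, 13.02 and 13.08, 12.68, and 12.47 and 12.53 in isopropanol, and 13.42 and 13.39, 13.59 and 13.78, and 14.26 and 14.08 in TFM at 1, 2 and 4 h. The arms did not overlap at any time. The difference of 0.36 ± 0.089 at 1 h missed the threshold (adjusted p = 0.09581), and those of 1.01 ± 0.109 at 2 h (adjusted p = 0.001515) and 1.67 ± 0.089 at 4 h (adjusted p = 8.941e-07) passed it. The 4 h difference lay at percentile 99.1 of all genes. At 1 h POT1 was called under some other settings, at 0.36 with a trended and robust variance (adjusted p = 0.04552), at 0.65 against time zero (adjusted p = 0.01356) and at 0.65 against all 5 isopropanol arrays (adjusted p = 0.003977).

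SPS19 (YNL202W, chromosome XIV), the dienoyl-CoA reductase needed for some unsaturated fatty acids, had 13.38 and 13.47 at time zero and 13.30 and 13.48, 13.36, and 13.34 and 13.37 in isopropanol. In TFM it had 13.73 and 13.51, 13.74 and 13.65, and 13.81 and 13.91. All TFM arrays were above the rest, the lower 1 h array only just. The differences of 0.23 ± 0.093 at 1 h and 0.34 ± 0.113 at 2 h were not called (adjusted p = 0.2497 and 0.07511), and that of 0.51 ± 0.093 at 4 h, 1.42-fold, was (adjusted p = 0.0009204).

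ECI1 (YLR284C, chromosome XII), the enoyl-CoA isomerase that shifts the double bond of unsaturated fatty acids, had 12.88 and 12.96 at time zero and 12.95 and 13.03, 12.88, and 12.77 and 12.82 in isopropanol. Its TFM values were 13.34 and 12.96, 13.15 and 13.33, and 13.40 and 13.63. The 1 h TFM arrays were the widest apart of any pair for these genes, with an SD of 0.273, and they overlapped the isopropanol arrays. Only the 4 h difference of 0.72 ± 0.128, 1.65-fold, was called (adjusted p = 0.0007518), after 0.15 ± 0.128 at 1 h and 0.36 ± 0.157 at 2 h (adjusted p = 0.5598 and 0.1521).

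TES1 (YJR019C, chromosome X), which hydrolyses acyl-CoA to the free acid, had 13.27 and 13.28 at time zero, the highest group mean of this gene. It had 13.15 and 13.20, 13.20, and 13.16 and 13.26 in isopropanol and 13.07 and 13.15, 13.16 and 13.05, and 13.25 and 13.08 in TFM. The arms overlapped at 4 h, and the TFM arrays were slightly the lower ones at 1 and 2 h. The differences were -0.07 ± 0.078, -0.09 ± 0.096 and -0.05 ± 0.078 at 1, 2 and 4 h, none called (adjusted p = 0.7034, 0.5465 and 0.5937). At 4 h the 95% interval ran from -0.23 to 0.13, whose upper end was below the lower end of the interval of every other gene of the set, the lowest being 0.30 for SPS19. The TES1 difference lay at percentile 47 of all genes, while the other 9 lay at percentiles 81.3 to 99.1.

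CTA1 (YDR256C, chromosome IV), catalase A of the peroxisome, had 13.23 and 13.27 at time zero, 13.27 and 13.39, 13.24, and 13.19 on both arrays in isopropanol, and 13.62 and 13.49, 13.68 and 13.75, and 14.27 and 14.21 in TFM. All TFM arrays were above all others, the 4 h pair by the widest margin. The differences were 0.22 ± 0.072 at 1 h (adjusted p = 0.1563, not called), 0.47 ± 0.089 at 2 h (adjusted p = 0.01007) and 1.05 ± 0.072, or 2.07-fold, at 4 h (adjusted p = 2.532e-06). CTT1, the cytosolic catalase and named here after its values were seen, went the other way at 4 h by -0.45 ± 0.086 (adjusted p = 0.001212).

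**Figure D2:**
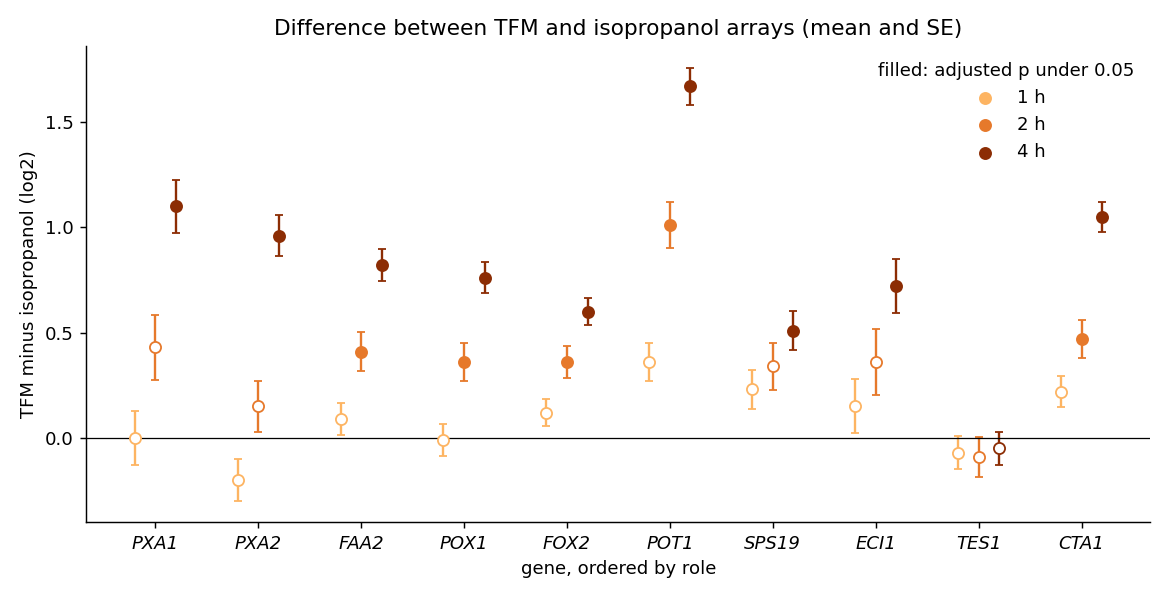
TFM minus isopropanol (log2, vertical axis) for each gene at 1, 2 and 4 h, with the standard error of the limma contrast; filled points had an adjusted p under 0.05. At 4 h all genes but TES1 are filled, from 0.51 for SPS19 to 1.67 for POT1, and at 1 h none is.

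At 1 h 3 of the 10 genes had an unadjusted p under 0.05, as had 17.7% of all genes, and the median difference of the 10 was 0.105, beside 0.006 over all genes. Both TFM arrays lay above both isopropanol arrays for FAA2, FOX2, POT1, SPS19 and CTA1 and below them for PXA2 and TES1. None of these differences was called, and how many of all genes were separated in this way was not counted. At 2 h the 5 called genes were FAA2, the 3 core enzymes and CTA1, and the median was 0.361, beside 0.011 over all genes. The 2 h contrast rests on a lone control array, whose variance was taken to equal that of the groups with 2. Without TFM 2 h replicate 2 the calls of FAA2 (0.34, adjusted p = 0.07127), POX1 (0.27, adjusted p = 0.1083) and FOX2 (0.31, adjusted p = 0.06829) were lost, leaving 2. The uncalled PXA1 ran from 0.25 without that array to 0.61 without replicate 1, where it was called (adjusted p = 0.02551). POX1 also lost its call without either time zero array (adjusted p = 0.05871), and under a replicate block over all arrays (0.34, adjusted p = 0.06422). SPS19 was called at 2 h with a trended and robust variance (0.34, adjusted p = 0.03713), after quantile normalization (0.37, adjusted p = 0.04986) and against all 5 isopropanol arrays (0.33, adjusted p = 0.01244), and ECI1 in the last of these (0.35, adjusted p = 0.03461).

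RNA integrity, read as the excess of 3 prime over 5 prime signal averaged over 7 control transcripts, differed between the groups. In TFM at 4 h the excess was 1.63 and 1.40, beside 1.15 and 1.13 in isopropanol, and in TFM at 2 h 1.18 and 1.49, beside 1.14. At 1 h it was 1.32 and 1.39 in TFM and 1.42 and 1.34 in isopropanol, beside 1.19 and 1.21 at time zero. Both TFM arrays exceeded both isopropanol arrays in this excess at 4 h, and the lone isopropanol array at 2 h. An effect of TFM and one of integrity therefore cannot be told apart at 2 or 4 h. With the excess as a covariate the same 9 genes were called at 4 h, with POT1 at 1.44 and a median of 0.742. Over all genes 1155 of 5449 were then called higher and 1293 lower. At 2 h the calls of FAA2 (0.35, adjusted p = 0.05619) and POX1 (0.30, adjusted p = 0.08733) were then lost. The hybridization controls averaged 12.2 in replicate 1 of TFM at 4 h and 11.4 to 11.9 elsewhere. With their level as a covariate the same 9 genes were again called at 4 h, beside 1518 of all 5449 genes higher and 1700 lower.

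**Figure D3:**
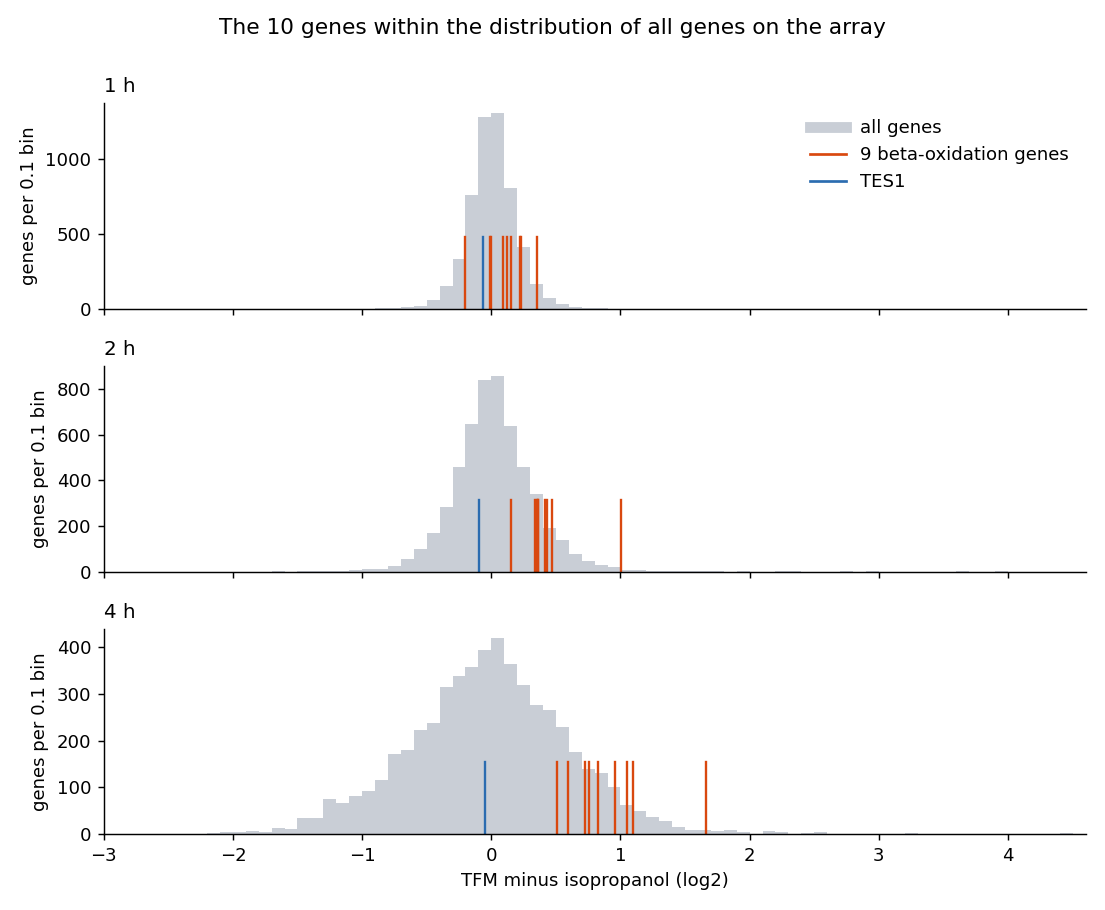
Number of genes per bin of 0.1 (vertical axis) by TFM minus isopropanol (log2, horizontal axis) at 1, 2 and 4 h, with the 10 genes as lines of no set height, TES1 in blue. The whole distribution widens with time, and 9 of the 10 genes lie on its right side at 4 h, with POT1 at 1.67 the farthest out.

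In isopropanol 0 of the 10 genes were called against time zero at 1, 2 or 4 h in limma, and 0% of all genes were. Of the 10, 2, 0 and 1 had an unadjusted p under 0.05 at these times, beside 6.74, 2.04 and 1.23% of all genes. The medians of the 10 were 0.095, -0.045 and -0.078. POT1 had the widest span, with 0.29 ± 0.089 at 1 h (adjusted p = 0.6688) and -0.26 ± 0.089 at 4 h (adjusted p = 0.9991), followed by PXA2 with 0.28 and -0.21. Isopropanol at 4 h was the lowest of the 7 groups for 8 genes, that is, for all but TES1 and PXA1, whose lowest was the lone 2 h isopropanol array. How often this rank occurs over all genes was not counted. From 1 h to 4 h in isopropanol, a contrast added after the data were seen, 0 of the 10 and 0% of all genes were called, and the values ran from -0.55 ± 0.089 for POT1 (adjusted p = 0.3894) and -0.49 ± 0.098 for PXA2 (adjusted p = 0.4077) to 0.04 for TES1. Of the 10 genes 4 had an unadjusted p under 0.05 there, beside 11.1% of all genes. Over all settings the POT1 value of this contrast ran from -0.58 to -0.4 and that of PXA2 from -0.52 to -0.37. RNA integrity also differed between these groups, with an excess of 1.42 and 1.34 at 1 h and 1.15 and 1.13 at 4 h.

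Within the TFM arm the step from 1 h to 2 h was small, with 0 of the 10 genes called beside 0.551% of all genes in either direction, 3 of the 10 at an unadjusted p under 0.05 beside 816 of all 5449 genes, and values from -0.01 for TES1 to 0.28 for POT1. From 2 h to 4 h 7 genes rose, beside 25% of all genes called higher. The largest were those of the transporter, PXA1 by 0.70 ± 0.127 (adjusted p = 0.001333) and PXA2 by 0.64 ± 0.098 (adjusted p = 0.0004861), then CTA1 by 0.53 ± 0.072, POT1 by 0.48 ± 0.089, POX1 by 0.34 ± 0.074, FAA2 by 0.29 ± 0.075 and FOX2 by 0.20 ± 0.064. ECI1 (0.27), SPS19 (0.16) and TES1 (0.06) were not called. The calls of FAA2 (0.22, adjusted p = 0.06139) and FOX2 (0.15, adjusted p = 0.1326) were lost without TFM 2 h replicate 1, and that of FOX2 without TFM 4 h replicate 2 (0.18, adjusted p = 0.08028) or with the RNA integrity covariate (0.18, adjusted p = 0.07). ECI1 was called without either TFM 1 h array (adjusted p = 0.04596), and after cyclic loess both ECI1 (0.33, adjusted p = 0.04973) and SPS19 (0.23, adjusted p = 0.04943) were.

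The difference between the arms grew from 1 h to 4 h for 8 of the 10 genes when that change was itself tested, beside 22.9% of all genes called higher. It was largest for POT1, at 1.31 ± 0.125 (adjusted p = 7.213e-05), PXA2, at 1.16 ± 0.138 (adjusted p = 0.0001872), and PXA1, at 1.10 ± 0.179 (adjusted p = 0.0009621). For SPS19 (0.28 ± 0.131, adjusted p = 0.1056) and TES1 (0.01 ± 0.111, adjusted p = 0.9223) it was not called. Each value combines the course of both arms. Of the 1.31 for POT1, the TFM arrays rose by 0.76 ± 0.089 between those times (adjusted p = 7.407e-05) while the isopropanol arrays differed by -0.55, and of the 1.16 for PXA2 the parts were 0.67 and -0.49. CTA1 drew its 0.83 mostly from the TFM side, at 0.69 beside -0.14. In the TFM arm alone, 4 h against 1 h and again a contrast added later, 9 of the 10 genes were called higher, beside 27.5% of all genes. Of these SPS19 (0.24 ± 0.093, adjusted p = 0.0476) and ECI1 (0.37 ± 0.128, adjusted p = 0.03263) fell to 0.13 and 0.17 without TFM 1 h replicate 2 and to 0.19 and 0.25 without TFM 4 h replicate 2, and were not called. Neither was called with the hybridization control covariate (adjusted p = 0.09944 and 0.05899), nor ECI1 with the RNA integrity covariate (adjusted p = 0.05348). SPS19 was also not called without any other array except those of isopropanol at 1 and 2 h and TFM 1 h replicate 1. For the change in the difference between arms, ECI1 (0.57 ± 0.181, adjusted p = 0.02621) was not called without TFM 1 h replicate 2 (0.37), TFM 4 h replicate 2 (0.45), isopropanol 1 h replicate 2 (0.53) or isopropanol 4 h replicate 1 (0.54), nor with the RNA integrity (0.64, adjusted p = 0.1009) or hybridization control covariate (0.61, adjusted p = 0.07028). The uncalled SPS19 ran from 0.17 without TFM 1 h replicate 2 to 0.39 without TFM 1 h replicate 1, where it was called (adjusted p = 0.04423), as it was after cyclic loess (0.35, adjusted p = 0.04138).

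Across the 13 arrays, which share treatments and times, each of the 9 responding genes followed the mean of the others at Pearson r from 0.873 for PXA2 to 0.991 for POX1, and TES1 at -0.451. These are descriptions without a test. Both PXA2 arrays of isopropanol at 1 h exceeded all its TFM arrays of 1 and 2 h; their part in its lower r was not tested. Outside the set, the genes whose values were most like the mean profile of the 10, each centred on its own mean, were RAD28 (r = 0.9836), PLB3, a phospholipase B (0.9814), TEN1, a telomere capping protein (0.9806), NNK1, a protein kinase (0.9795), and SPG1, a gene needed in stationary phase at high temperature (0.9788). Their differences at 4 h, which this choice largely fixes, ran from 1.01 for NNK1 to 1.5 for SPG1. Such likeness was common, with r over 0.9 for 483 of the 5439 other genes, or 8.88%.

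Of 11 regulators of the oleate and derepression response, 7 were higher and 2 lower at 4 h, with a median of 0.481, beside 30.9% of all genes higher and 34.0% lower. The list mixes activators and repressors, so this count and median give no direction for the response. MIG1, the glucose repressor, rose by 1.62 ± 0.113 (adjusted p = 2.629e-06) and SIP4, an activator of gluconeogenic genes, by 1.24 ± 0.069 (adjusted p = 9.766e-07). SNF4 (-0.71 ± 0.084, adjusted p = 5.659e-05) and SNF1 (-0.25 ± 0.073, adjusted p = 0.01413), subunits of the kinase that relieves glucose repression, were lower. The direct activators, named here after their values were seen, gave 0.68 ± 0.124 for PIP2 (adjusted p = 0.0008697), 0.41 ± 0.08 for ADR1 (adjusted p = 0.001331) and 0.31 ± 0.128 for OAF1 (adjusted p = 0.05306, not called). OAF1 crossed the threshold in 9 of 25 other settings, at 0.50 without TFM 4 h replicate 2 and at 0.41 without isopropanol 4 h replicate 2, and its lowest value was -0.07, with the RNA integrity covariate. SNF1 was not called without TFM 4 h replicate 2 (-0.19, adjusted p = 0.08139) or isopropanol 4 h replicate 2 (-0.22, adjusted p = 0.06596), and ADR1 not with the RNA integrity covariate (0.34, adjusted p = 0.06436).

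Peroxins, the proteins that build peroxisomes and import their matrix enzymes, were higher for 17 and lower for 1 of 25 measured genes at 4 h, with a median of 0.578, beside the same 30.9 and 34.0% of all genes. Of the 28 listed 3 were not measured. PEX18 rose by 2.54 ± 0.123 (adjusted p = 6.647e-07) and PEX21 by 2.12 ± 0.131 (adjusted p = 1.612e-06). Both encode co-receptors of Pex7, the import receptor of the thiolase. At 1 h, when 0 of the 10 enzyme genes were called, PEX21 was called at 1.05 ± 0.131 (adjusted p = 0.01787). That call was lost without any single array of 1 h or of time zero, at values of 0.99 to 1.10. It was also lost with the hybridization control covariate (1.05, adjusted p = 0.06862 in limma). PEX8, of the import machinery, was the peroxin that fell (-0.32 ± 0.06, adjusted p = 0.001092).

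**Figure D4:**
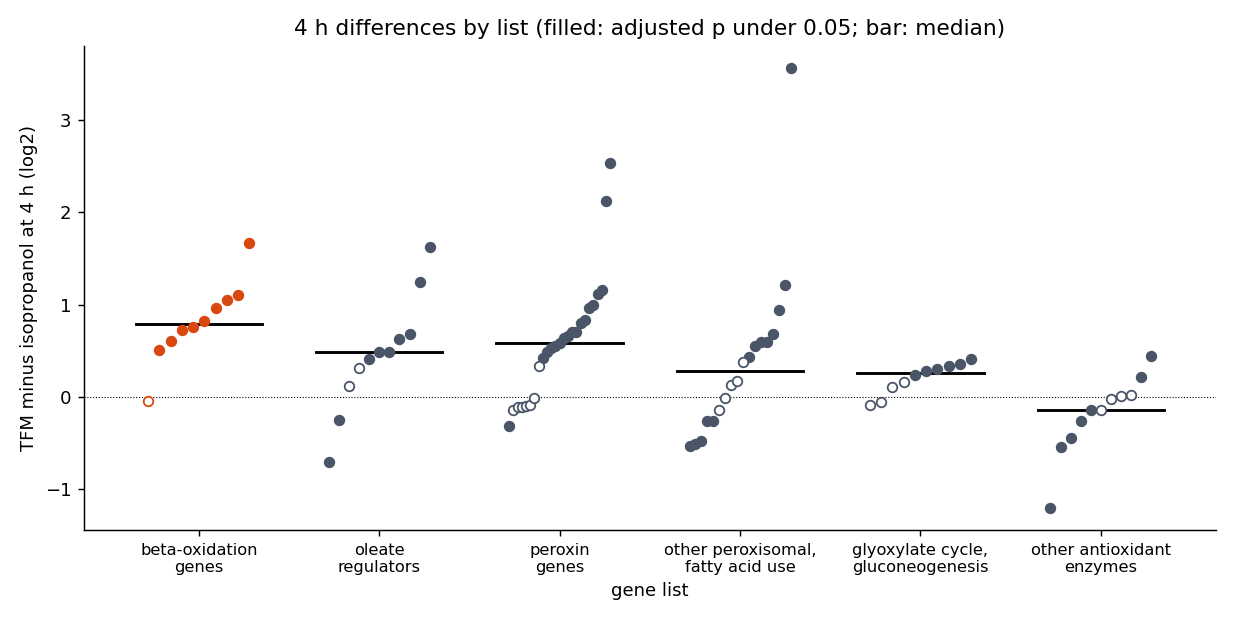
TFM minus isopropanol at 4 h (log2, vertical axis) for the beta-oxidation genes and the 5 lists of related genes; filled points had an adjusted p under 0.05 and bars are medians. The medians run from -0.149 for other antioxidant enzymes to 0.79 for beta-oxidation.

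Of 18 other enzymes of peroxisomes and fatty acid use, 8 were higher and 5 lower at 4 h, beside 30.9 and 34.0% of all genes, with a median of 0.272. STR3, a cystathionine beta-lyase, rose by 3.57 ± 0.178 (adjusted p = 7.551e-07), and IDP3, which supplies NADPH to the dienoyl-CoA reductase step, by 1.21 ± 0.088 (adjusted p = 3.219e-06). ANT1, the peroxisomal adenine nucleotide carrier (-0.48 ± 0.073, adjusted p = 0.0003045), and NPY1, an NADH diphosphatase (-0.26 ± 0.059, adjusted p = 0.002957), fell. DCI1, the paralog of ECI1 and named here after its values were seen, gave 0.38 ± 0.18 and was not called (adjusted p = 0.08922), except without either isopropanol 1 h array (adjusted p = 0.03921) and with the RNA integrity covariate (0.78, adjusted p = 0.03812).

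The glyoxylate cycle and gluconeogenesis, which use the acetyl-CoA that beta-oxidation yields, had 6 of 10 genes higher and 0 lower at 4 h, beside 30.9 and 34.0% of all genes, with a median of 0.255. CIT2, the peroxisomal citrate synthase, rose by 0.35 ± 0.059 (adjusted p = 0.0005554) and JEN1, the lactate transporter, by 0.30 ± 0.062 (adjusted p = 0.001993). At 2 h 0 of these genes were called higher and 1 lower, beside 8.30 and 5.84% of all genes, with a median of -0.123. Of 11 other antioxidant enzymes 2 were higher and 5 lower at 4 h, with a median of -0.149, beside 30.9 and 34.0% of all genes. AHP1, a peroxiredoxin, rose by 0.44 ± 0.074 (adjusted p = 0.0005541) and PRX1, the mitochondrial one, by 0.21 ± 0.058 (adjusted p = 0.01044), while TSA2 (-1.21 ± 0.151, adjusted p = 7.915e-05) and HYR1 (-0.55 ± 0.069, adjusted p = 8.07e-05) fell. With the RNA integrity covariate neither JEN1 (0.27, adjusted p = 0.05631) nor PRX1 (0.16, adjusted p = 0.1761) was called.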

How the data were processed

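Total RNA of 13 yeast samples was hybridized to 1-colour arrays as biotin-labelled cRNA, per the labels' protocols. The authors deposited log2 values made with RMA, per the submitters' processing notes, which give no version. The number of arrays limits the precision.

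Of 5900 probe sets 184 are controls; 5498 carry 1 gene in the platform annotation, 0 several and 402, controls included, none. Symbols were matched by gene ID to RefSeq R64, which updated 12. For 47 genes the brightest of several probe sets, by mean over all arrays, was kept, leaving 5449 genes. limma 3.58.1 in R 4.3.3 fitted the 7 group means in 1 model with default eBayes (6 residual and 3.52 prior degrees of freedom); p-values are two-sided, with Benjamini-Hochberg adjustment over 5449 genes and a threshold of 0.05. Standard errors are limma's, and SDs are over the arrays of a group. The model was also run on simulated data with independent noise and few changed genes, all in TFM at 4 h. These data have many changed genes and correlated replicate deviations, so that run does not vouch for the calls here. Figures used matplotlib 3.10.9 in Python 3.11.15.

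Besides the 10 genes, the rule named up to 2 genes each way of smallest adjusted p at 4 h in each of 5 lists, the 5 genes most like the mean profile, and the strain's deleted markers. Members and lists were chosen with earlier results of these data known. The settings tried were another variance prior, 3 other normalizations, a filter on dim probe sets, other controls, covariates, replicate blocks and leaving out each array. Replicate deviations correlated at 0.2659 to 0.5988 in the 3 pairs of groups without TFM. In an added setting, and not in the reported model, the replicate numbers were therefore taken to pair those arrays, on the data alone. Over all 15 pairs of groups r ran from -0.4711 to 0.5988. Promoter motifs and protein ends were not analysed here.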

Additional observations from a re-analysis of the deposited data

Results flagged for a closer look

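For 8 of the 10 genes the difference between TFM and isopropanol at 4 h was larger than that at 1 h by a test of the change itself in limma. The change was 1.10 for PXA1, 1.16 for PXA2, 0.74 for FAA2 (adjusted p = 0.000482), 0.77 for POX1 (adjusted p = 0.0003775), 0.47 for FOX2 (adjusted p = 0.002158), 1.31 for POT1, 0.57 for ECI1 and 0.83 for CTA1 (adjusted p = 0.0002226), all log2. All 4 arrays of each time enter these values, and the call of ECI1 was lost in 6 other settings, among them those with the RNA integrity (adjusted p = 0.1009) and the hybridization control covariate (adjusted p = 0.07028). Of all genes, 22.9% had a positive change that was called.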

How the results depend on the processing

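At 4 h 9 genes were called under every alternative that was run, and all 250 values of single genes kept their side of the threshold, with another sign in 3 values of TES1; the median was 0.686 to 0.862, lowest against all 5 isopropanol arrays. At 1 h the count of 0 became 1 with a trended and robust variance, 1 with the 3 prime minus 5 prime covariate (POT1, 0.37, adjusted p = 0.03634), 1 against time zero (median 0.194) and 2 against all 5 isopropanol arrays (CTA1 added, 0.30, adjusted p = 0.02483). At 2 h the 5 became 3 with that covariate, 6 with a trended and robust variance or quantile normalization, 7 against all 5 isopropanol arrays and 2 to 6 with an array left out; no value could be had without the lone isopropanol 2 h array. Over all comparisons, 2530 of 2580 values of single genes kept their side of the threshold, 34 lost the call and 16 gained it; 0 called values and 50 uncalled ones changed sign. Counts over all genes were less stable: the 67 at 1 h ran from 1 without TFM 1 h replicate 1 or isopropanol 1 h replicate 2 to 299 against all 5 isopropanol arrays, the 770 at 2 h from 382 to 1666, the 30 from TFM 1 h to 2 h from 5 to 87, and the 2684 for the change in the difference between arms fell to 1622 with the 3 prime minus 5 prime covariate. At 4 h the count over all genes ran from 2448 with that covariate to 3735 against all 5 isopropanol arrays. With a replicate block over all arrays 0, 4 and 9 of the 10 genes were called at 1, 2 and 4 h, 8 from TFM 1 h to 4 h (SPS19 lost, adjusted p = 0.06564), and 7 and 487 of all genes at 1 and 2 h. With the pairing of the arrays without TFM, added after the data were seen, the counts were 0, 4 and 9, with POX1 lost at 2 h (adjusted p = 0.05341), and 0 genes were called in isopropanol; a crossed pairing at 1 h called 0 of the 10 and 13 of all genes. The blocks changed no other call of the 10 genes.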
